A study of Rattus norvegicus with 2 samples.

Results

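The keratins described here are those of the basal epidermal layer and of simple epithelium: Krt14, Krt5, Krt15, Krt19, Krt7, Krt8 and Krt18. They were taken by symbol from the array table. Of these 7 genes, 6 had a named probe set, 1 probe set each, among 15037 named genes in all; Krt5 had no named probe set and was not analysed here. The group was chosen by measured values as well as by family, because the difference of Krt15 between the arrays was already known, so the members' differences are a description and support nothing further.

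RNA came from cultured epidermal keratinocytes of newborn rats and was read on whole-transcript arrays, 1 array for each of 2 groups. The siTet2/3 cells received siRNAs against Tet2 and Tet3 at 1 µM each, and after 24 h vitamin C was added for 12 h. The control cells carried the label "control" or "NC" and also received vitamin C for 12 h; whether they were given another siRNA or the transfection reagent alone is not stated in the labels. Both groups shared the same medium, which contained serum and hydrocortisone, and no group without vitamin C was used here. TET enzymes convert 5-methylcytosine to oxidised forms, with vitamin C as a booster of the reaction. The knockdown itself was not analysed here, since neither Tet2 nor Tet3 had a named probe set. A single array per group allows no test and gives no value a replicate check; "higher" and "lower" refer to this single pair of arrays, whose number bounds the precision.

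Keratins are the intermediate filament proteins of epithelial cells. A filament is built from pairs of an acidic type I and a basic type II keratin, and each layer or kind of epithelium uses its own pairs. Basal keratinocytes are known for the pair of Krt5 (type II) and Krt14 (type I), with the type I keratin Krt15 as a further partner of Krt5 in basal cells and in the stem cells of the hair follicle bulge. Single-layered epithelia use Krt8 (type II) with Krt18 (type I), joined by Krt7 (type II) and Krt19 (type I) in ducts and glands, while in skin Krt8 and Krt18 mark Merkel cells. Krt19 also appears in follicle stem cells.

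The 2 columns had nearly the same distribution, with medians of 4.90 log2 units on the siTet2/3 array and 4.85 on the control array. Quantile normalisation, part of the RMA named by the submitters, matches array distributions, so this likeness is no check on the RNA or the arrays. The Pearson correlation was 0.989 across the named genes, which are not independent replicates. The background floor was 5.04 log2 units, the 95th percentile of 1206 chemoreceptor genes, used here as a gauge of background. On at least 1 array 8103 named genes lay above it. Of these 8103 genes, 8.63% passed a 1.5-fold limit upwards (higher on the siTet2/3 array) and 13.2% passed it downwards, as measured. Among the keratins described here, 4 of 6 lay above the floor; 2 of these 4, Krt15 and Krt19, were at least 1.5-fold higher and 0 were lower. By a stricter floor, the 95th percentile of negative-control probes at 8.31 log2 units, Krt14 and Krt15 passed on both arrays and Krt19, Krt7, Krt8 and Krt18 on neither, which leaves Krt15 alone past 1.5-fold. Keratins of a type resemble each other in sequence, and hybridisation of one to the probes of another was not tested. Since the group was assembled with the value of Krt15 known, nothing is read from the share.

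**Figure D1:**
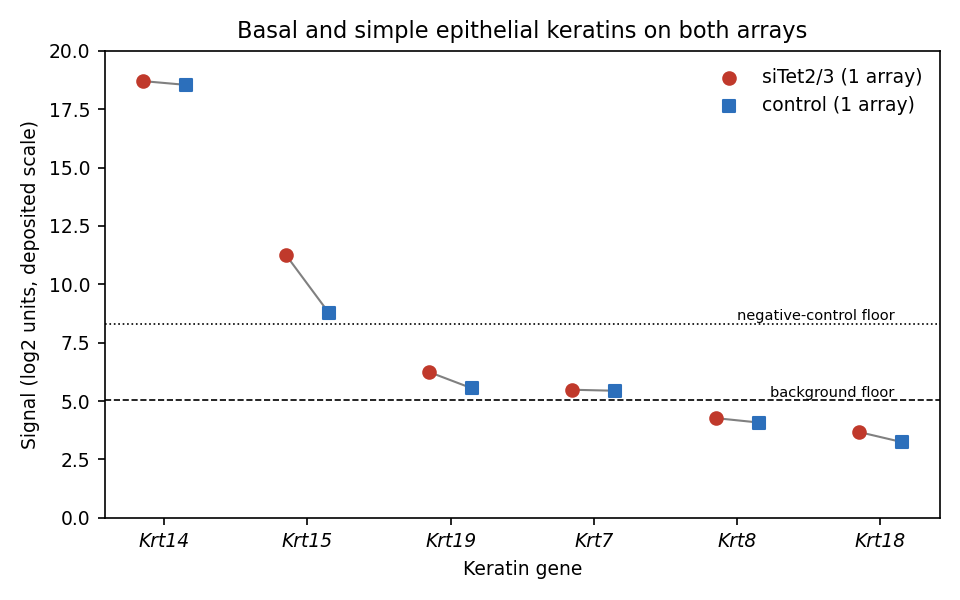
Signal of each basal and simple epithelial keratin (y axis, log2 units on the deposited scale) on the siTet2/3 array (circles) and the control array (squares), with the background floor of 5.04 dashed and the negative-control floor of 8.31 dotted. The 2 points of Krt15 lie 2.48 units apart, those of Krt14 0.16 apart, and Krt8 and Krt18 lie under the background floor on both arrays.

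Krt15 read 11.26 log2 units on the siTet2/3 array and 8.78 on the control array. Both values were above the floor, so the fold is measured on both sides and not a bound. The difference of 2.48 log2 units is 5.59-fold on the deposited scale. In bulk RNA of a culture, more cells that carry a transcript and more transcript per cell cannot be told apart.

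No gene near Krt15 in level differed as much upwards. Of the 500 named genes nearest to Krt15 in mean level (9.69 to 10.34 log2 units), 0 had as large a positive difference, and the highest of them was 1.49. Their differences had a median of -0.07 and a robust SD of 0.45 log2 units, and 5.80% were at least 1.5-fold higher. Ranked from the most positive difference down, Krt15 was 2 of 8103 genes above the floor. Downward differences among these genes reached -3.18 log2 units, farther from 0 than that of Krt15. The gene at rank 1, the olfactory receptor Or13c3, read 5.88 on the siTet2/3 array and 3.20, below the floor, on the control array. In the same upward order Krt15 ranked 1 of the 7504 genes for which neither array was below the floor. Next came Igfbp5, a gene of the IGF-binding family with a difference of 2.10. The group was chosen with the difference of Krt15 known, so its place in these orders is a description only.

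**Figure D2:**
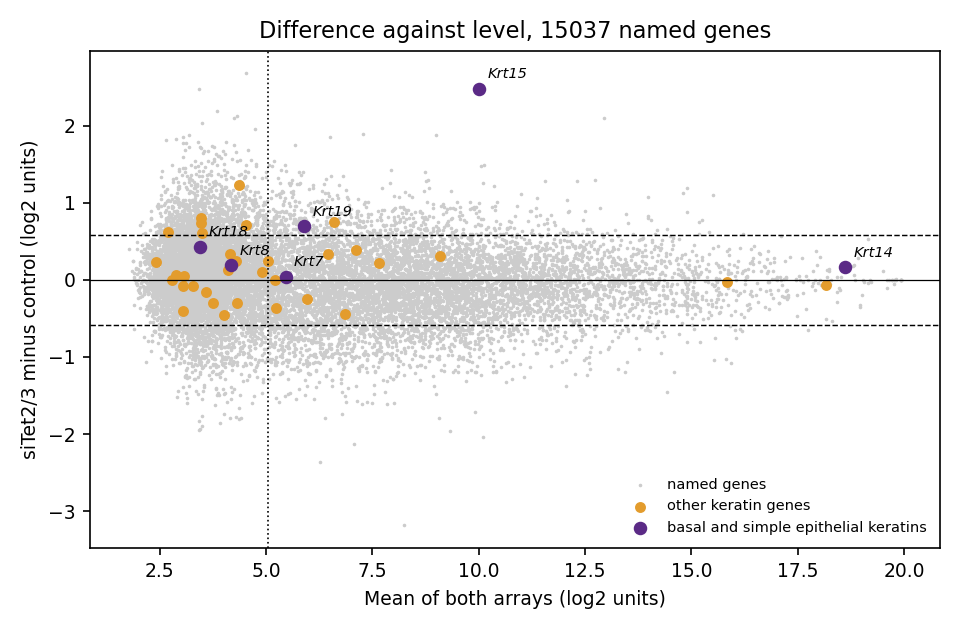
Difference between the arrays (y axis, siTet2/3 minus control, log2 units) against the mean of both arrays (x axis, log2 units) for 15037 named genes in grey, other keratin genes in orange and the basal and simple epithelial keratins in purple. Dashed lines mark 1.5-fold and the dotted line 5.04 log2 units; Krt15 at 2.48 lies above the other genes of its level, while Krt14 and Krt7 lie near 0.

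Krt14, the type I keratin that basal cells pair with Krt5, read 18.70 log2 units on the siTet2/3 array and 18.54 on the control array. The difference of 0.16, or 1.12-fold, was smaller than the robust SD of 0.29 among the 500 genes nearest in level, of which 120 had at least as large a positive difference. Deposited values end at 19.93. Krt14 lay 1.23 units below that end on the siTet2/3 array and 1.39 below on the control array. It was thus not among the 7 genes at or next to the end on both arrays. Whether signals this high are compressed was not tested. The spread of differences was unlike at the 2 levels, with a robust SD of 0.29 near Krt14 and 0.45 near Krt15. Krt15 differed by 2.32 log2 units more than Krt14 within the same pair of arrays. This is a difference of changes and gives no ratio of the amounts of the 2 keratins, because signals of different probe sets are not on a common scale.

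Krt19, a type I keratin without the tail domain of its relatives, read 6.24 log2 units on the siTet2/3 array and 5.54 on the control array. Both values passed the floor, the control value by 0.50. The difference of 0.70, or 1.62-fold, passed the 1.5-fold limit, but at this level such differences were common. Of the 500 genes nearest in level 11.8% were at least 1.5-fold higher, and 42 had a difference as large as that of Krt19. Their robust SD was 0.54 log2 units. From the most positive difference down, Krt19 ranked 474 of the 8103 genes above the floor.

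Krt7, a type II keratin of ducts and glands, read 5.48 log2 units on the siTet2/3 array and 5.44 on the control array, a difference of 0.04. The values lay 0.44 and 0.40 log2 units above the floor on the siTet2/3 and the control array. The identifier of its probe set has the prefix that the array design uses for sequences not placed on a chromosome.

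Krt8 and Krt18, which pair with each other in simple epithelium, were below the floor on both arrays. Krt8 read 4.27 log2 units on the siTet2/3 array and 4.08 on the control array. Krt18 read 3.68 on the siTet2/3 array and 3.24 on the control array. No fold is given for either, as neither was above the chemoreceptor background. Of the 500 genes nearest in level to Krt18, 135 had at least as large a positive difference as its 0.43, and for Krt8, with a difference of 0.19, this number was 228.

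Most keratin genes lie in 2 clusters, 1 for type I and 1 for type II; Krt18 is the type I gene that stands at the edge of the type II cluster. In the gene order of assembly GRCr8, Krt15 lies between Krt13 and Krt19 with no other protein-coding gene between them. Krt13, a type I keratin of the inner lining of mouth and oesophagus, read 9.24 log2 units on the siTet2/3 array and 8.93 on the control array, a difference of 0.31 (1.24-fold). The neighbours on either side of Krt15 differed upwards by 0.31 (Krt13) and 0.70 (Krt19). The 0.31 was smaller than the robust SD of 0.45 among the 500 genes nearest in level to Krt15. Of the 500 genes nearest in level to Krt19, 42 had at least as large a positive difference. Krt19 lay under the negative-control floor of 8.31 on both arrays. Positive differences were seen for 14 of 20 named genes of the type I cluster and 13 of 21 of the type II cluster. Among all named genes they were seen for 7490 of 15037, and among chemoreceptor genes for 675 of 1206. The 14 include Krt15 and Krt19, and 12 of the 20 were below the background floor. A shared change of neighbouring genes was not tested. Beyond Krt19 lay Krt9, a keratin of palm and sole skin, with 4.18 on the siTet2/3 array and 4.47 on the control array, both below the floor. Krt14 followed after Krt9. After Krt14 the next named gene was Krt17, a keratin of the hair follicle and of wounded epidermis, with 18.12 on the siTet2/3 array and 18.19 on the control array.

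Over the whole type I cluster, 20 of 56 genes had a named probe set and 8 of these lay above the floor. Krt15 and Krt19 were the 2 genes at least 1.5-fold higher, and 0 were lower. Both belong to the group assembled with the value of Krt15 known, so nothing is read from this count. The other 6 genes above the floor differed by between -0.06 and 0.34 log2 units. In the type II cluster 21 of 30 genes had a named probe set, 9 lay above the floor, 1 was at least 1.5-fold higher and 0 were lower. Among all 8103 genes above the floor, 8.63% were higher and 13.2% lower by the same limit. Next to Krt7 stood Krt80, a keratin known to lie near desmosomes, with 15.84 on the siTet2/3 array and 15.86 on the control array. On its other side Krt87 was below the floor on both arrays. Around Krt8 and Krt18 the nearest named genes were Krt4, below the floor, and the translation factor gene Eif4b, with a difference of 0.13.

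**Figure D3:**
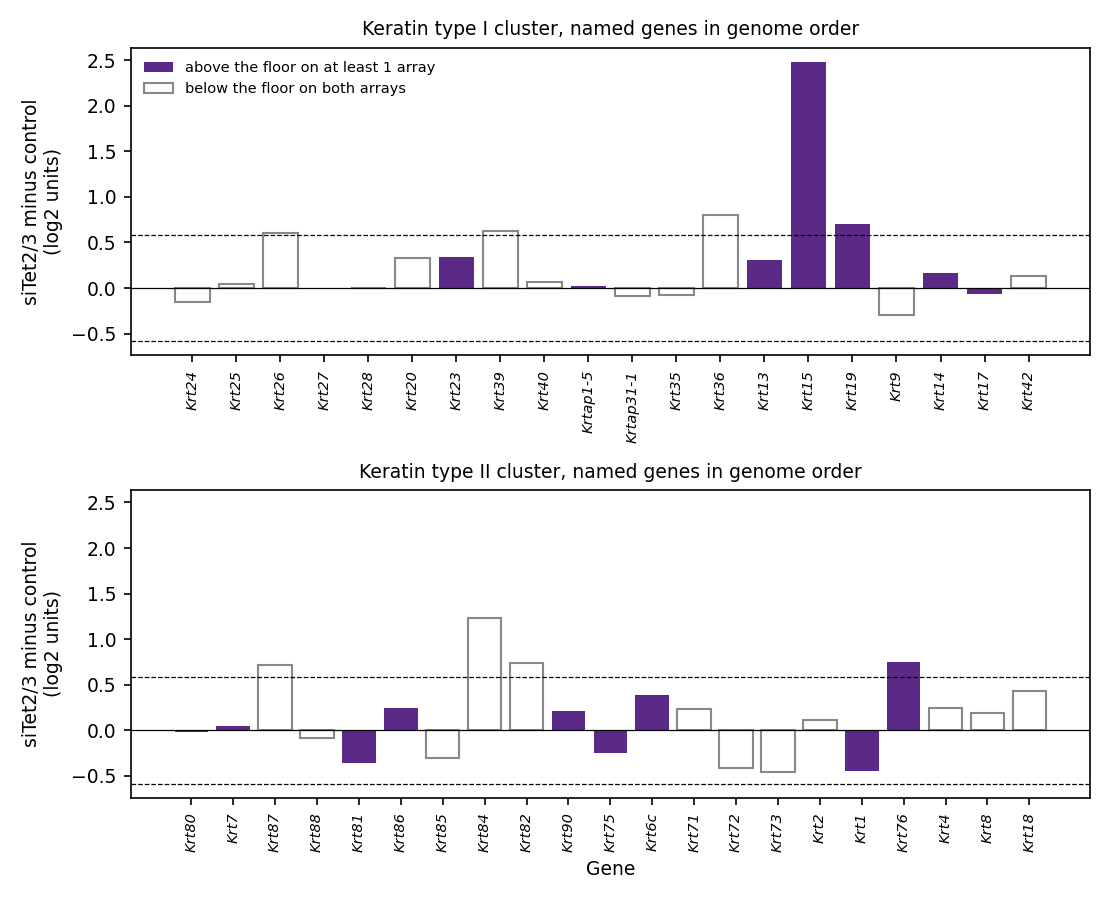
Difference between the arrays (y axis, siTet2/3 minus control, log2 units) for the named genes of the type I cluster (upper panel) and the type II cluster (lower panel), in genome order from left to right; filled bars are genes above the background floor on at least 1 array, open bars genes below it on both, and dashed lines mark 1.5-fold. Krt15 reaches 2.48, and the filled bars beside it are Krt13 at 0.31 and Krt19 at 0.70.

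Outside the basal and simple group, 33 other keratin genes had a named probe set and 12 of them passed the floor. Among these 12, 1 was at least 1.5-fold higher and 0 were lower, beside 8.63% higher and 13.2% lower among all genes above the floor. The median difference of the 12 was 0.11 log2 units, against -0.05 for all genes above the floor. The higher one was Krt76, a type II keratin of the hard palate, with 6.99 on the siTet2/3 array and 6.23 on the control array (1.69-fold). Krt90 and Krt6c differed by 0.22 and 0.38. The lowest difference of the 12 was that of Krt1, a keratin of spinous cells (named after its value was seen), with 6.63 on the siTet2/3 array and 7.07 on the control array (-0.45).

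Of 11 other listed genes of basal keratinocytes 6 had a named probe set and all 6 were above the floor, with 0 of 6 at least 1.5-fold different in either direction. Their differences ran from -0.47 to -0.03 log2 units with a median of -0.25, against a median of -0.05 for all genes above the floor; those of Itgb1 (-0.05) and Cdh3 (-0.03) are positive once that median is subtracted. The largest was that of Lamb3, a chain of the basement membrane protein laminin-332, with 14.43 on the siTet2/3 array and 14.90 on the control array. Tp63, the transcription factor that maintains the basal layer, read 12.75 on the siTet2/3 array and 13.15 on the control array. For this list and those that follow, the shares among all genes above the floor were 8.63% higher and 13.2% lower. No list was tested against these shares.

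Genes of the hair follicle bulge, where Krt15 is a known marker, were mostly at background. Of 18 listed, 13 had a named probe set and 5 passed the floor, with 1 at least 1.5-fold higher and 0 lower. The higher one was Id2, an inhibitor of basic helix-loop-helix transcription factors, with 11.86 on the siTet2/3 array and 11.01 on the control array (1.80-fold). The bulge markers Cd34 and Lgr5 were below the floor on both arrays: Cd34 read 2.83 on the siTet2/3 array and 2.25 on the control array, and Lgr5 read 4.80 on the siTet2/3 array and 4.66 on the control array. Over the 5 genes above the floor the median difference was -0.25.

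The list of simple epithelium, the setting of Krt7, Krt8, Krt18 and Krt19, was mixed. Of 9 named genes 7 passed the floor, 1 was at least 1.5-fold higher, 1 lower and 5 neither, with a median of 0.19. The adhesion molecule gene Epcam read 6.52 on the siTet2/3 array and 5.68 on the control array (1.78-fold higher), both under the negative-control floor of 8.31, so it is not counted with that floor. The tight junction gene Cldn4 read 14.80 on the siTet2/3 array and 15.61 on the control array (1.75-fold lower). Cdh1, which encodes E-cadherin, differed by -0.02.

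Among proteins that bind or anchor keratin filaments, 11 of 16 listed genes were named and all 11 were above the floor. Here 1 was at least 1.5-fold higher, 2 were lower and 8 were neither, with a median of 0.19. Pof1b, which encodes an actin-binding protein of epithelial junctions, read 16.06 on the siTet2/3 array and 14.96 on the control array (2.15-fold higher). The lower ones were the desmosomal plakophilin gene Pkp3 (8.05 on the siTet2/3 array and 8.97 on the control array, 1.89-fold) and Tradd, an adaptor of the TNF receptor whose human protein binds keratin 18 (6.59 on the siTet2/3 array and 7.29 on the control array, 1.63-fold). Tradd, too, lay under 8.31 on both arrays. The cytolinker genes Plec and Ppl differed by 0.35 and 0.55.

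Intermediate filament genes other than keratins were mostly below the floor, with 3 of 13 above it, 1 at least 1.5-fold higher and 0 lower. Lmnb1, which encodes lamin B1 of the nuclear envelope, read 12.56 on the siTet2/3 array and 11.67 on the control array (1.85-fold higher). Lmna, which encodes lamins A and C, differed by 0.21. Vim, which encodes the vimentin of mesenchymal cells and of many cultured cells, differed by -0.08, from 8.73 on the siTet2/3 array and 8.81 on the control array.

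Of 11 transcription factor genes tied to keratin genes, all were named and 10 passed the floor, with 2 at least 1.5-fold higher, 4 lower and 4 neither. The median was -0.26. The higher ones were Sp1, a general activator (10.41 on the siTet2/3 array and 9.70 on the control array, 1.64-fold), and Klf5, a factor of proliferating epithelium (12.95 on the siTet2/3 array and 12.28 on the control array, 1.58-fold). The 3 lower ones with the largest differences were the AP-1 subunit gene Jun (2.43-fold), the AP-2 gene Tfap2c (2.19-fold) and Cebpb. Cebpb was below the floor on the siTet2/3 array (4.27) and at 5.34 on the control array, so its fold is a bound of at least 1.23-fold lower. It is counted among the 4 by its measured values, and its bound does not reach 1.5-fold. Tfap2a, the AP-2 gene known to act on basal keratins, differed by -0.12.

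**Figure D4:**
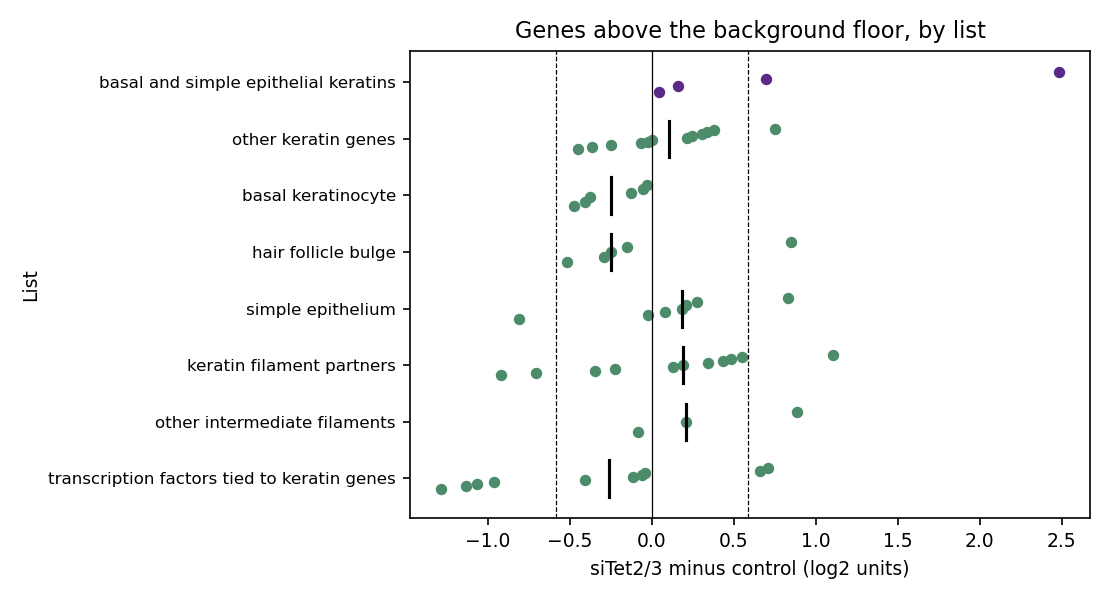
Difference between the arrays (x axis, siTet2/3 minus control, log2 units) of each gene above the background floor, by list (y axis); black ticks are list medians, not drawn for the keratins in the top row, dashed lines mark 1.5-fold, and the vertical offset within a row only separates points. Krt15 at 2.48 is farther from 0 than the points of the other lists, which run from -1.28 (Jun) to 1.10 (Pof1b).

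Of 9 keratinocyte markers 6 were named and all 6 were above the floor on both arrays: Tp63, Itga6, Itgb4, Dsg3 and Perp beside Krt14. No fibroblast marker (0 of 8) and no immune marker (0 of 5) passed the floor on either array. Of the 4 named melanocyte markers only Mitf passed, and of the 4 endothelial markers only Tek.

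Merkel cells, the skin cells known for Krt8, Krt18 and Krt20, had 5 named markers. Their defining factor Atoh1 and the keratin Krt20 were below the floor on both arrays, Isl1 read 7.20 on the siTet2/3 array and 6.70 on the control array, and Chga was below the floor on both (4.08 on the siTet2/3 array and 4.79 on the control array). Sox2 passed the floor on the control array alone (4.93 on the siTet2/3 array and 5.71 on the control array), which is at least 1.59-fold lower. Summed on the linear scale over probe sets that share no common scale, the 5 came to 7.83 log2 units on the siTet2/3 array and 7.72 on the control array. Sebaceous and sweat gland markers, another setting of Krt7 and Krt19, had 3 named members with a summed level of 6.90 on the siTet2/3 array and 6.24 on the control array. Mc5r and Aqp5 were below the floor, and Elf5, an epithelial ETS factor, read 6.53 on the siTet2/3 array and 5.60 on the control array (1.91-fold higher), both under 8.31. The part of Elf5-expressing cells in the differences of Krt15 and Krt19 was not tested.

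With 2 arrays, likeness to Krt15 can only mean a nearby pair of values. The 5 named genes closest to it, by Euclidean distance over the 2 log2 values, were Pik3r3, Sesn3, Rhox5, Phf14 and Evi5, at distances of 0.71 to 1.05 log2 units. Pik3r3, a regulatory subunit gene of phosphoinositide 3-kinase, read 10.78 on the siTet2/3 array and 9.31 on the control array. Sesn3, a stress-responsive sestrin gene, read 10.87 on the siTet2/3 array and 9.38 on the control array. Since closeness to the values of Krt15 chose these genes, their being higher on the siTet2/3 array is fixed by the choice.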

How the data were processed

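The values are log2 signals, deposited by the authors as 1 table of probe sets by arrays. RMA, which corrects background, quantile-normalises and summarises probes, and the Transcriptome Analysis Console are named in the submitters' processing notes; for versions, settings and the genome build, nothing was given in the sources used. Quantile normalisation makes differences relative to the bulk of genes. Values ran from 1.36 to 19.93. Every fold is on this deposited scale, and whether the scale is that of plain RMA was not tested.

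Of 23188 gene probe sets, 15049 had 1 symbol in the platform annotation, 0 had several and 8139 had none. All 15049 Entrez identifiers matched the RefSeq table of GRCr8, and 0 symbols changed. Probe sets of a gene were averaged (10 genes). Columns of other samples numbered 0.

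The difference is siTet2/3 minus control. Counts are of genes that reached 1.5-fold and exceeded the floor on at least 1 array. Genes named besides the 7 keratins follow a rule: other keratins past 1.5-fold and the 5 of highest level, neighbours in genome order, the 5 genes closest to Krt15, and per list up to 3 past 1.5-fold in each direction or else the largest difference; exceptions, among them Tp63, Plec, Ppl, Cdh1, Lmna, Vim and Tfap2a, were named after their values were seen. The members and lists were chosen with earlier results of these data known. Code was tested on simulated data. Tools were Python 3.11.15 with numpy 2.4.6, pandas 2.3.3 and statsmodels 0.14.6.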

Additional observations from a re-analysis of the deposited data

How the results depend on the processing

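No paired analysis was possible because each group had 1 array. The difference of Krt15 lay between 2.48 and 2.55 log2 units, that of Krt19 between 0.70 and 0.77 and that of Krt14 between 0.16 and 0.22 after centring on the median, after subtracting a loess trend on level (span 0.3), and with the brightest probe per gene or values raised to the floor. Krt8, below the floor, lay between -0.04 (trend removed) and 0.24. Of the keratins described here, 2 passed 1.5-fold with a floor raised by 1 log2 unit, with none, and after centring or trend removal. The number was 1, Krt15, with a floor from 1153 negative-control probes (8.31 log2 units) or a 2-fold limit. Of the other keratin genes 1 passed in the report, 7 with no floor, which admits genes at background, and 0 with the negative-control floor or the 2-fold limit. Of the listed genes 13 passed at 1.5-fold and 4 at 2-fold. Both counts include Cebpb by its measured values, although its bound reaches neither limit. The single array per group sets the limit on every value, and Krt19 and Krt7 were at most 1.20 log2 units above the floor.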

Other observations

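Krt27, a type I keratin of the inner root sheath of the hair follicle, had exactly the same deposited value, 5.20 log2 units, on the siTet2/3 array and the control array. Exact equality was seen for 112 of 15037 named genes, 34 of them above the background floor. On both arrays 7 named genes stood at or next to the end of the scale, and their overlap with the 34 was not counted.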
